A study of Gallus gallus with 4 samples.

Results

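In nuclei of the embryonic chicken lung, 2651 distal peaks of open chromatin had at least 3-fold more signal in endothelial nuclei than in nuclei with no UMI of 5 endothelial genes. They are 3.92% of the 67549 distal peaks listed within 50000 bp of a gene, and 26.3% of the 10082 such peaks with 20 or more counts in endothelial nuclei. All 87491 peaks of the series come from the same E13 library. A peak was taken when it had no promoter annotation, at least 20 counts in endothelial nuclei and a ratio of at least 3. The ratio compares levels scaled to 1000000 peak counts (CPM), with 1 added, between 137 endothelial nuclei and 6695 other nuclei. Endothelial nuclei had at least 4 UMIs of KDR, EDNRB, FLT1, TEK and ERG together, at most 2 of the epithelial genes EPCAM and CDH1, and none of the leukocyte gene PTPRC. The other nuclei had 0 UMIs of the 5 genes, and both sides needed 500 detected genes. Since these values chose the peaks, they are described without a test.

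Distal open chromatin holds enhancers, short stretches of DNA where transcription factors bind and act on genes at a distance. In endothelial cells, which line blood vessels, enhancers are known to be bound by ETS factors such as ERG, FLI1 and ETS1, by SOX factors, and by complexes of GATA2, TAL1 and LMO2. Many of these factors also act in blood cells, which share an embryonic origin with endothelium. In the lung, capillary endothelium exchanges gas with the epithelium and answers to VEGF through KDR, FLT1 and neuropilins.

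The series holds wild-type lung at embryonic day 13 (E13) and embryonic day 20 (E20), with 1 library per group and therefore no replicate. At E13, cells of sorted populations were mixed in about equal parts and profiled by a multiome assay, which reads RNA and open chromatin from the same nucleus, so proportions of cell types reflect that mix. At E20, RNA was read from an epithelial sort (E20 epithelial library) and from lung cells without CD45-positive immune cells (E20 CD45neg library). No test of a condition was possible. Intervals are exact 95% intervals for counting error alone. Of the nonzero entries of peak counts, 70.9% equal 2 and 81.3% are even, so that 20 counts stand for fewer than 20 independent DNA fragments. Setting each entry to 0 or 1 left 897 peaks past the same thresholds, 892 of them among the 2651, and keeping only nuclei with at most 40% mitochondrial UMIs left 45 endothelial nuclei and 228 peaks, 190 of them among the 2651.

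The label of the endothelial nuclei was checked against markers that the rule did not use. All 13 of the 20 such markers present in the files were higher in endothelial nuclei than in the rest. VWF, a clotting protein of endothelium, had 2137 RNA CPM against 5.05, CDH5 (VE-cadherin) had 387 against 5.14, and EGFL7, a matrix protein of vessels, had 438 against 2.78. PECAM1 was less restricted, at 890 against 166 CPM. Of 8 leukocyte markers, PTPRC was at 0 by the rule, and CD3E and CD79B were at 0 in endothelial and in immune nuclei alike. CSF1R was at 7.97 CPM in endothelial nuclei against 287 in immune nuclei, LCP1 at 5.80 against 202 and SPI1 at 1.45 against 252. IKZF1 was at 0.725 against 34.7 CPM and RUNX3 at 0.725 against 58.2 CPM. The 14 mesenchymal markers summed to 1501 CPM in endothelial nuclei against 941 in the rest, and none was at 0. The mesenchymal RNA was uneven among nuclei. In the 26 endothelial nuclei with 3 or fewer UMIs of 12 other endothelial markers, the mesenchymal sum was 5870 CPM, in the 111 others it was 786 CPM, and in mesenchymal nuclei it was 7330 CPM. The smooth-muscle gene MYH11 stood at 1812 CPM in those 26 nuclei, at 67.5 CPM in the 111 and at 71.6 CPM in mesenchymal nuclei. On this gene the 26 nuclei therefore differed from the mesenchymal nuclei. The epithelial surfactant gene SFTPC was at 313 CPM in endothelial nuclei against 1660 CPM in epithelial nuclei. The 137 nuclei had a median of 7324 peak counts and the rest 3400, with 1480400 and 45212726 counts in sum.

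Across the 2651 peaks the ratio had a median of 5.31 (5th to 95th percentile 3.13 to 18.1) and reached 55.9. It was 10 or more in 509 peaks and 20 or more in 99. The median ratio over all distal peaks in reach was 0.699. The level in endothelial nuclei had a median of 25.7 CPM and that in the rest 3.47 CPM. A member peak was seen in a median of 12.4% of the 137 nuclei and in at most 37.2%. Of the 2651 peaks, 1408 had fewer than 40 counts in endothelial nuclei, so single peaks near the lower limit rest on few nuclei. The 3 peaks just inside the ratio limit had 3.0015, 3.0014 and 3.0013, and the 3 just outside had 2.9999, 2.9978 and 2.9957. The 3 peaks just inside the count limit had 20 counts and ratios of 3.01 to 3.06, and the 3 just outside had 19 counts and ratios of 6.43 to 8.10. Another 541 distal peaks had a ratio of at least 3 but too few counts.

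Splitting the rest side showed how far the peaks were shared with other cell classes. Nuclei were called epithelial with 4 or more UMIs of EPCAM and CDH1 (1480 nuclei), mesenchymal with 4 or more UMIs of 6 fibroblast genes (822) and immune with 2 or more UMIs of PTPRC (200), which left 4193 nuclei in no class. Of the 2651 peaks, 2591 (97.7%) were at least 3-fold above the epithelial level, 1497 (56.5%) above the mesenchymal level and 1766 (66.6%) above the immune level. In all, 962 (36.3%) were at least 3-fold above each class. Mesenchymal nuclei alone came within 3-fold in 755 peaks, immune nuclei alone in 485, both of these in 389, and epithelial nuclei, alone or with others, in 60. Within 3-fold, or shared, means here that the endothelial level was less than 3-fold above the class. It includes peaks where the class was higher by any amount. The lowest endothelial over immune ratio was 0.221. In 97 peaks the mesenchymal level was above the endothelial one, and in 245 the immune level was. Among all 10082 distal peaks with 20 or more counts, 9.57% were 3-fold above each class. These counts describe the choice of peaks, since the classes are parts of the rest side.

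**Figure D1:**
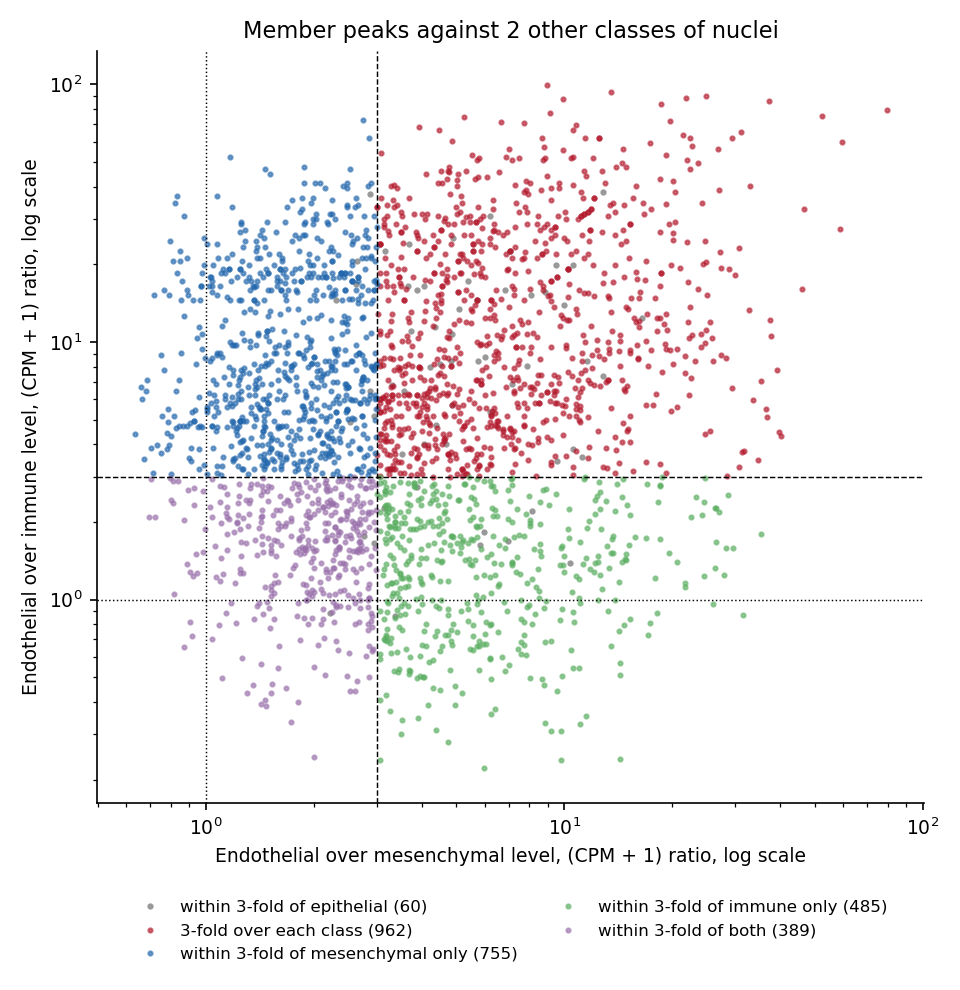
Each point is a member peak: the x axis gives its endothelial over mesenchymal ratio and the y axis its endothelial over immune ratio, both of CPM + 1 and on log scales. Dashed lines mark 3-fold and dotted lines equal levels. Colours give the classes within 3-fold, including classes above the endothelial level. The 962 peaks 3-fold above each class fill the upper right, and 245 peaks lie below the horizontal dotted line.

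The 12 peaks with the highest ratios, at most 1 per linked gene, had ratios of 36.3 to 55.9 and were all 3-fold above each class. The first lies at chr1:93254721-93255476 (galGal6), 3021 bp from the start of MAEL, a gene known for transposon silencing in the mammalian germ line. It held 116 counts in 38 of 137 endothelial nuclei (27.7%) and 19 counts in 6695 other nuclei. Its level was 78.4 CPM in endothelial, 0.510 in epithelial, and 0 in mesenchymal and immune nuclei. MAEL RNA itself was low, with 4 UMIs in the 137 nuclei (2.90 CPM) and 5.11 and 10.6 CPM in endothelial cells of the E20 epithelial and CD45neg libraries. The second, at chr13:16017408-16018335, lies inside the gene model ENSGALG00000053609 and 16940 bp from CXCL14. It had 89.2 CPM in endothelial nuclei against 0.459, 2.64 and 0 CPM in epithelial, mesenchymal and immune nuclei.

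Other peaks among the 12 lay in NRP1 and ZNF521, 7647 bp from the listed start of ERG and 13391 bp from that of CCNG2. The remaining ones were listed for unnamed gene models alone. The NRP1 peak at chr2:13985261-13986177 had 83.8 CPM in endothelial nuclei and 0.439 to 2.08 CPM in the 3 other classes. The ZNF521 peak, in a zinc finger gene, had 70.3 CPM in endothelial nuclei and at most 2.08 CPM in the other classes. Of the 18 genes these 12 peaks were listed for, 8 had no UMI in any endothelial nucleus at E13, among them ENSGALG00000016157 and ENSGALG00000053985. In contrast, the unnamed model ENSGALG00000051104, 24054 bp from its peak, had 35.5 RNA CPM in endothelial nuclei and 0.427 in the rest.

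The 5 gene lists hold 102 genes of endothelial biology in all. Of 81 list genes with a distal peak in reach, 50 (61.7%) had a member, where 13.2% of all 17581 such genes did. This share is a description, because the lists include the 5 genes whose RNA defined the endothelial nuclei. A gene with many distal peaks, such as MECOM with 46, also has more peaks that could be members, and the shares were not adjusted for this. The 106 member peaks of the list genes included 45 that were 3-fold above each class, 24 within 3-fold of mesenchymal nuclei alone, 26 of immune nuclei alone, 10 of both and 1 of epithelial nuclei. Among 26 regulators, 19 had a member, with 46 peaks, 18 of them 3-fold above each class.

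LMO2, the bridging protein of endothelial and blood transcription complexes, had 6 distal peaks in reach and all 6 were members. They lay in or up to 20591 bp from the gene on chromosome 5, with ratios from 4.32 to 20.6. The strongest, at chr5:18675310-18676149, had 36.5 CPM in endothelial nuclei against 0.357 epithelial, 0 mesenchymal and 2.08 immune CPM. A neighbour at chr5:18673960-18674836 was open in both endothelial (35.8 CPM) and immune nuclei (19.8 CPM), with 1.02 CPM in epithelial nuclei. In all, 3 of the 6 were within 3-fold of the immune level and 3 were above each class. LMO2 RNA was 343 CPM in endothelial nuclei and 8.28 in the rest.

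GATA2, a zinc finger factor of the same complexes, had 4 members among 9 distal peaks, and all 4 were 3-fold above each class. Their ratios were 5.05 to 13.6. Of these, 3 lay close together, 12316 to 15344 bp on the side listed as negative, and the other was at 5471 bp on the opposite side. GATA2 RNA was 35.5 against 1.77 CPM.

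The ETS genes differed from one another in their sharing. The ERG peak at chr1:108964400-108965277 had 83.1 CPM in endothelial nuclei, 3.51 in mesenchymal, 0.970 in epithelial and 0 in immune nuclei. A second ERG peak, 18243 bp from a listed start, had a ratio of 11.9. The remaining one, 36905 bp away with a ratio of 4.37, was within 3-fold of the mesenchymal level. FLI1 had 3 members inside the gene, the strongest at chr24:1086819-1087932 with 54.7 CPM against 0.562, 0.659 and 8.34 CPM in epithelial, mesenchymal and immune nuclei. ETS1 had 6 members and each was within 3-fold of the mesenchymal level. At chr24:960532-961439, 3593 bp from ETS1, the level was 65.5 CPM in endothelial, 34.3 in mesenchymal, 11.5 in immune and 3.93 in epithelial nuclei. ETS1 RNA was 10.3-fold higher in endothelial nuclei (189 against 18.4 CPM).

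Further regulators followed either pattern or both. FOXO1, a forkhead factor, had 2 members, 1 of them 3-fold above each class. That peak, 38310 bp away, had 45.9 CPM in endothelial nuclei and at most 1.10 CPM in the other classes. The other FOXO1 member, at 49220 bp, was within 3-fold of another class. SOX17 and SOX18, factors of vessel development, had 2 and 1 members, all 3-fold above each class, with ratios of 7.11 to 8.84. MEF2C, HHEX and MEF2A peaks were high in immune nuclei too. The MEF2C peak at chrZ:60564255-60565129 had 57.4 CPM in endothelial and 37.5 CPM in immune nuclei, against 1.98 mesenchymal and 0.817 epithelial CPM. Both FOXF1 members, of the forkhead gene of lung mesenchyme and vessels, were within 3-fold of the mesenchymal level, with 32.4 against 15.8 CPM and 42.6 against 18.4 CPM. TAL1, ETS2, KLF2, PROX1, NR2F2, FOXC1 and HEY2 had none. A TAL1 peak 2502 bp away had a ratio of 7.42 but 18 counts, just short of the count limit, and a TAL1 promoter peak had a ratio of 5.67. The promoter peak over the KLF2 start had 56.1 CPM in endothelial and 55.2 CPM in immune nuclei. Another KLF2 promoter peak had 33.1 CPM in endothelial, 37.8 in mesenchymal and 14.6 in immune nuclei.

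**Figure D2:**
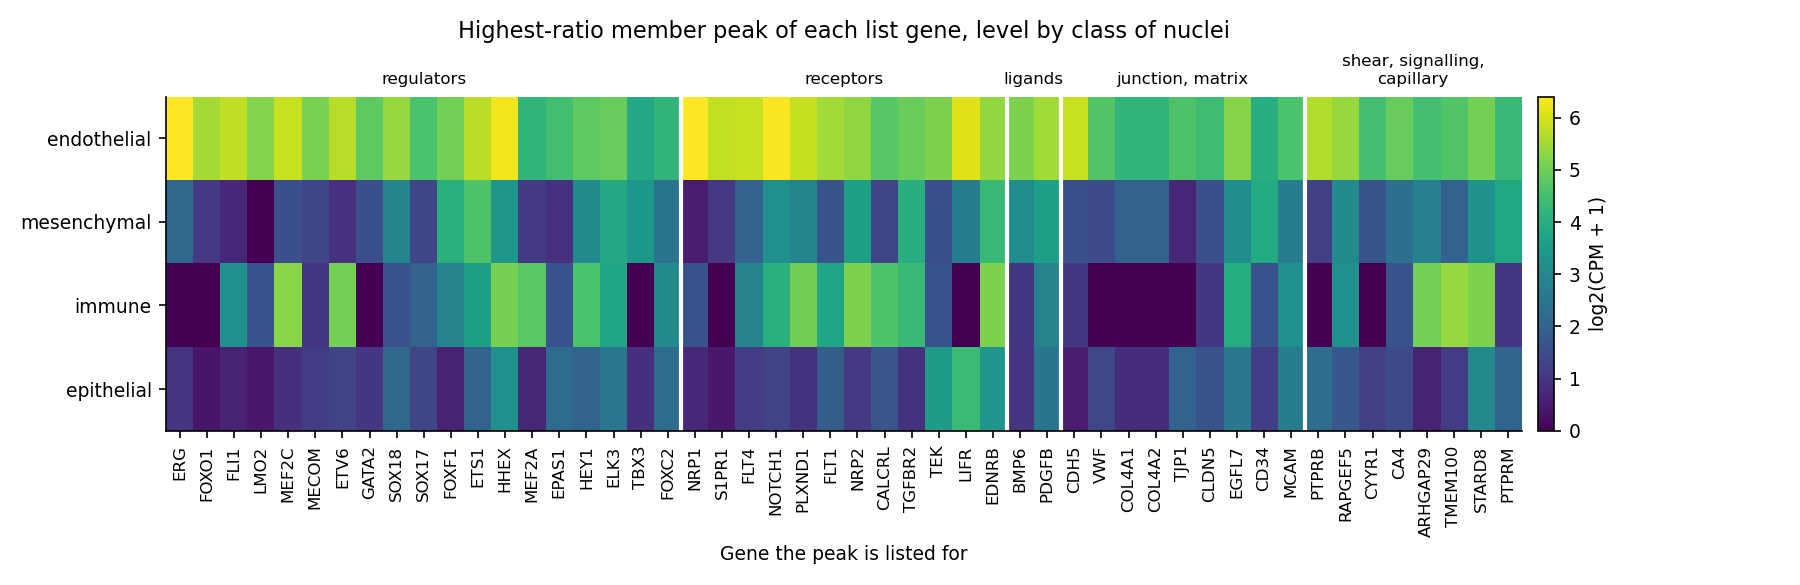
Colour gives the level, as log2(CPM + 1), of the highest-ratio member peak of each of the 50 list genes in 4 classes of E13 nuclei, grouped by list and sorted by ratio within it. COL4A1 and COL4A2 share 1 peak. The endothelial row is high throughout because that is how peaks were chosen, ERG, GATA2 and CDH5 are dark in the other rows, and ETS1, MEF2C and TMEM100 are bright in a second row.

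Receptors had 29 member peaks at 12 of 17 genes, 11 of them 3-fold above each class. Another 9 were within 3-fold of immune nuclei alone, 3 of mesenchymal nuclei alone and 6 of both. KDR, TIE1, APLNR, UNC5B and ACVRL1 had none. The 3 distal peaks of TIE1 had ratios of 0.236 to 0.669, although TIE1 RNA was 20.3 CPM in endothelial nuclei and 0.404 in the rest. S1PR1, the receptor of sphingosine-1-phosphate that stabilises vessels, had 2 neighbouring members on chromosome 8. The stronger, at chr8:12066158-12066842, had 55.4 CPM in endothelial nuclei, 1.10 mesenchymal, 0.357 epithelial and 0 immune CPM. FLT4, the receptor of VEGFC, had a peak 3491 bp away with 57.4 CPM and at most 6.25 CPM in the other classes. The NOTCH1 peak inside the gene had 80.4 CPM, with 15.6 CPM in immune and 8.34 CPM in mesenchymal nuclei.

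Most members of NRP2 and PLXND1, which bind semaphorins or act with their receptors, were within 3-fold of immune nuclei, while the strongest NRP1 peak was not. NRP2 had 5 members, none of them 3-fold above each class. At chr7:12725239-12726134 the immune level of 62.5 CPM was above the endothelial level of 32.4 CPM. PLXND1 had 6 members, 1 of them 3-fold above each class. At chr12:19957078-19957968 its peak had 57.3 CPM in immune and 28.4 CPM in endothelial nuclei. The peak at chr12:19929878-19930737, inside PLXND1, was seen in 47 of 137 endothelial nuclei (34.3%).

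The 5 genes that defined the endothelial nuclei did not all have members. KDR, the main VEGF receptor, had 4 distal peaks in reach and none was a member. The nearest to the limits, at chr4:65164020-65164865, had a ratio of 2.82, with 36.5 CPM in endothelial, 32.3 in mesenchymal, 6.43 in epithelial and 3.13 in immune nuclei. The promoter peak over the KDR start had a ratio of 1.99. EDNRB, the endothelin receptor, had 1 member, 226 bp from the listed start. Its ratio was 3.20, with 34.4 CPM in immune nuclei against 40.5 in endothelial ones. TEK, the angiopoietin receptor, had 2 members with ratios of 4.14 and 3.93, and its promoter peak had a higher ratio of 15.4. FLT1 had 3 members, which differed in their sharing. The strongest, 46126 bp from the listed start with a ratio of 9.58, had 44.6 CPM in endothelial nuclei and at most 12.5 CPM in the other classes. The peak 44694 bp from the listed start had 64.6 CPM in immune nuclei and 23.6 CPM in endothelial nuclei. The remaining one, at 29851 bp, had 20.3 CPM in endothelial, 14.1 in mesenchymal and 0 in immune nuclei.

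Of 10 ligand genes with distal peaks, 2 had 1 member each, and both peaks were 3-fold above each class. Among all 17581 genes with a distal peak in reach, 13.2% had a member, and 10 genes are too few to compare with that share. PDGFB, which recruits pericytes, had a peak 10756 bp away with 44.6 CPM in endothelial nuclei and at most 11.4 CPM elsewhere. BMP6 had one inside the gene with 34.5 CPM against at most 7.69 CPM. DLL4, the Notch ligand of arterial and tip cells, had 7 distal peaks and no member. The highest DLL4 ratio was 2.40, although DLL4 RNA was 82.6 CPM in endothelial nuclei and 0.629 in the rest. The peak over the DLL4 start had a ratio of 3.16.

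Junction, matrix and surface genes had 17 member peaks at 9 of 14 genes, 10 of them 3-fold above each class. CDH5 had 3 members on chromosome 11, all on the side listed as negative, 5895 to 10204 bp away. That at chr11:11555904-11556744 had 57.4 CPM in endothelial nuclei and 1.98, 1.04 and 0.408 CPM in mesenchymal, immune and epithelial nuclei. CLDN5, a claudin of endothelial tight junctions, had 3 members within 6166 bp, one of which was at 21.9 CPM in immune and 19.6 CPM in endothelial nuclei. VWF had 1 member, with 24.3 CPM against at most 1.76 CPM. The genes of type IV collagen, the scaffold of the basement membrane, had 2, with 17.6 and 20.3 CPM in endothelial nuclei and 0 CPM in immune nuclei. TJP1, a tight junction adaptor also used by epithelium, had 4 members, while its RNA was 292 CPM in endothelial nuclei and 319 in the rest.

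The list of shear, signalling and lung capillary genes had 12 members at 8 of 14 genes, 4 of them 3-fold above each class. PTPRB, a phosphatase that acts on TEK and VE-cadherin, had a peak with 50.0 CPM in endothelial and 0 CPM in immune nuclei. That peak is listed 19850 bp from PTPRB and lies inside another gene, PTPRR. For 2 genes of this list a member peak was listed at E13 while their RNA was at or near 0. A peak at chr19:8255592-8256420 is listed 5872 bp from CA4, a carbonic anhydrase that marks a lung capillary type in mice, and lies inside 2 other gene models, ZNHIT3 and ENSGALG00000005350. It had 43 counts in 22 of 137 endothelial nuclei (16.1%), or 29.0 CPM, against 4.17 mesenchymal, 2.08 immune and 1.74 epithelial CPM. CA4 had 0 UMIs among the 1380136 of these nuclei, which allows up to 2.17 CPM. In the E20 endothelial cells CA4 RNA was 695 CPM in the epithelial and 801 CPM in the CD45neg library, 68.9-fold (59.9 to 79.7) and 149-fold (112 to 203) above the other cells.

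TMEM100, a membrane protein that acts downstream of BMP receptors in mouse endothelium, had a member 6495 bp away at chr18:6006859-6007713. That peak had 24.3 CPM in endothelial nuclei but 41.7 CPM in immune nuclei, with 3.07 and 1.17 CPM in mesenchymal and epithelial ones. The TMEM100 promoter ratio was 1.57. TMEM100 RNA had 7 UMIs in the endothelial nuclei at E13 (5.07 CPM), against 1.26 CPM in the rest, 4.03-fold (1.55 to 8.87) higher. At E20 it stood at 599 CPM in endothelial cells of the epithelial library and 705 CPM in those of the CD45neg library. Levels at E13 and E20 come from different sorts and assays, so age and library cannot be told apart in their difference.

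Nuclei with 2 or 3 UMIs of the 5 genes were not used to choose the peaks, though they come from the same library. In these 114 nuclei, 1500 of the 2651 peaks (56.6%) had a ratio over the rest of 2 or more, where 17.4% of all distal peaks did. Among the other distal peaks with 20 or more counts in endothelial nuclei the share was 14.1%. It was 56.7% for peaks 3-fold above each class, 70.9% for those within 3-fold of mesenchymal nuclei alone and 38.4% for those within 3-fold of immune nuclei alone. Among the 106 peaks of list genes it was 60 (56.6%). These shares are a description, because the ratio divides by the same rest nuclei that were used to choose the peaks. Members were chosen for a low level there, with a median of 3.47 CPM. That median was 5.46 CPM for all distal peaks and 15.4 CPM for the other distal peaks with 20 or more counts. The shares also pool unlike nuclei. Of the 614594 peak counts of the 114 nuclei, 525535 came from 94 nuclei with 3 or fewer UMIs of other endothelial markers. Member peaks held 2.37% of the counts of those 94, against 2.38% in mesenchymal nuclei. In the 20 others alone, 64.2% of members and 15.4% of all distal peaks had a ratio of 2 or more.

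The 114 nuclei differed among themselves. In 20 of them, 4 or more UMIs of 12 other endothelial markers were found. There the member peaks held a median of 7.94% of a nucleus's peak counts (quartiles 6.39 and 8.92%), against 8.66% (5.85 and 9.74%) in the 137 endothelial nuclei. In the 94 others the median was 2.38% (1.98 and 2.77%), against 2.44% (2.04 and 2.81%) in mesenchymal nuclei. The medians were 2.48% in immune and 0.685% in epithelial nuclei. The 14 mesenchymal markers summed to 530 RNA CPM in the 20 nuclei and 6254 CPM in the 94. The split by other markers was chosen after the values were seen.

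**Figure D3:**
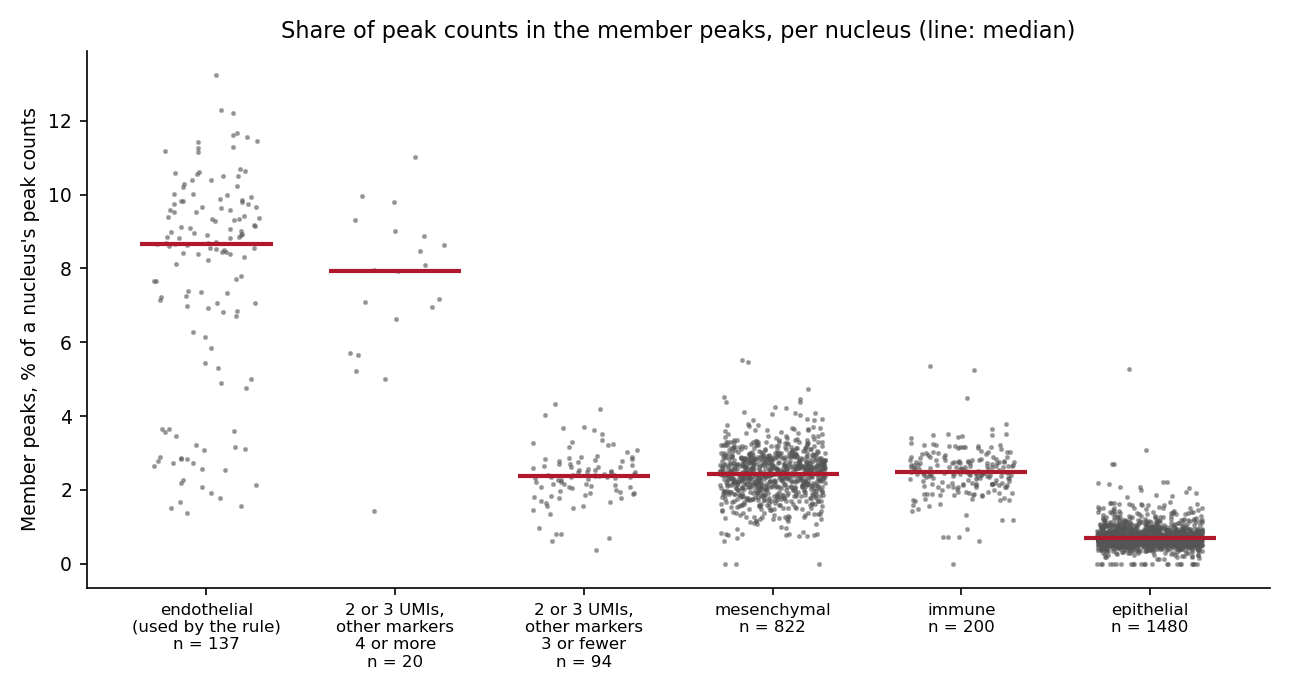
Each point is 1 nucleus, and the y axis gives the percent of its peak counts that fall in the 2651 member peaks. Red lines are medians, from 8.66% in the endothelial nuclei the rule used to 0.685% in epithelial nuclei. The 20 unused nuclei with other endothelial markers sit mostly with the endothelial nuclei, and the 94 without them lie with the mesenchymal ones.

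The groups of peaks differed between these nuclei as well. Peaks 3-fold above each class held 3.16% of all peak counts in the 20 nuclei and 0.455% in the 94, against 3.43% in endothelial and 0.436% in mesenchymal nuclei. Peaks shared with mesenchymal nuclei alone held 1.61% and 1.12%. Peaks shared with immune nuclei alone held 1.29% in the 20 nuclei and 0.236% in the 94. The 26 endothelial nuclei poor in other endothelial markers had 0.584% of counts in the peaks above each class, against 0.436% in mesenchymal nuclei, although they counted as endothelial in the choice of peaks. Taking the 111 others alone gave 2637 peaks, 2500 of them among the 2651.

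**Figure D4:**
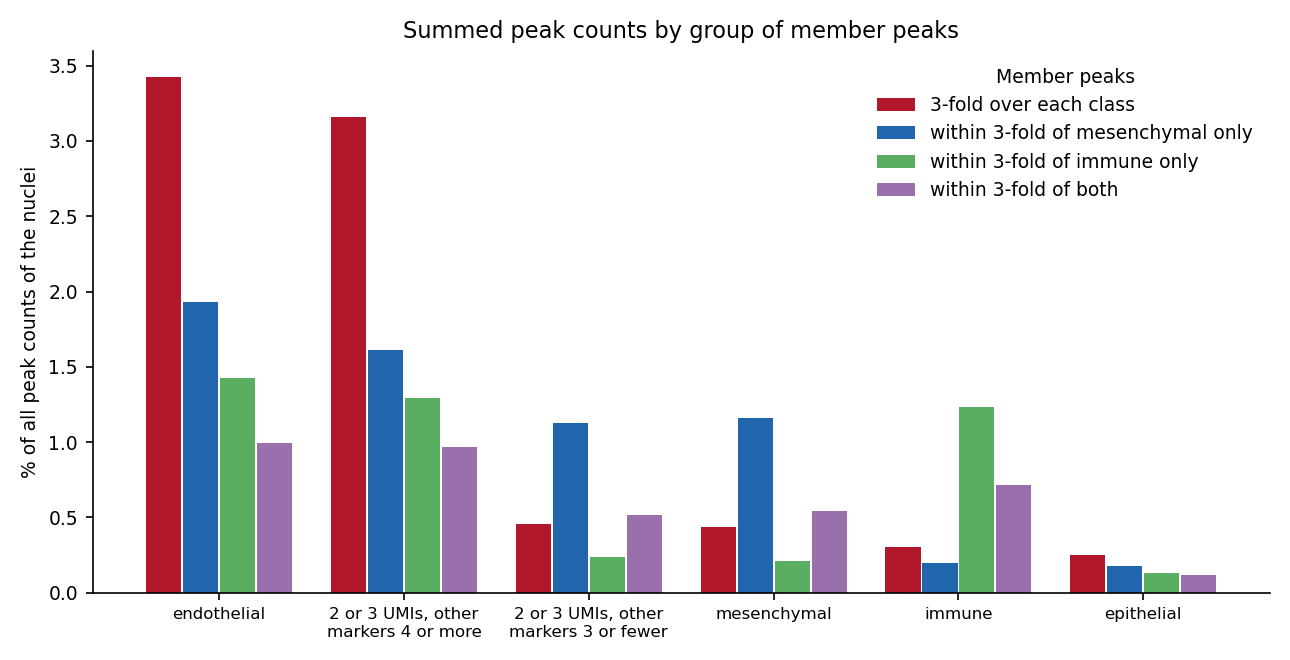
Bars give the percent of all peak counts, summed over each class of E13 nuclei, that fall in 4 groups of member peaks. The endothelial nuclei and the 20 unused nuclei with other endothelial markers have their tallest bar in the 962 peaks 3-fold above each class (3.43% and 3.16%), while the 94 others have theirs, at 1.12%, in peaks shared with mesenchymal nuclei.

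In distance to genes, member peaks were nearer to all distal peaks than to other well-covered ones. Among peaks with a nonzero listed distance, the nearest listed start was a median of 10698 bp away for 2539 members. It was 5907 bp away for 7317 other distal peaks with 20 or more counts and 9995 bp away for all 65068 distal peaks. Of these peaks, 2.68% of members, 10.7% of the others and 3.96% of all lay under 1000 bp. Listed at distance 0 for some gene were 22.6% of all members, 17.8% of the 7431 other peaks with 20 or more counts and 22.1% of all distal peaks. A peak inside a gene can also be listed at a nonzero distance. The FLT1 member listed at 44694 bp lies between the start and an FLT1 peak listed at 0. Distances given for peaks are therefore to listed starts, not to the ends of genes. At distance 0 the gene start can be far away, and it was over 50000 bp from the peak for 298 of 612 such listings of members. Another member started within 10000 bp of 24.9% of members, whereas 11.4% of the other peaks with 20 or more counts had a member that close. Chromosomes 1 to 5 held 50.5% of members, 41.4% of the others and 51.0% of all distal peaks. In this chromosome share members were close to all distal peaks. The peaks were 318 to 1186 bp wide, with a median of 867 bp.

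Promoter peaks could not be members, but their ratios compare the same nuclei that chose the members, so the promoter shares are a description. Of 9777 genes with a promoter peak of 20 or more endothelial counts, 2.43% had one with a ratio of 3 or more, and of 1252 genes linked to a member 7.75% did. Among list genes with a member it was 11 of 38 (28.9%). The ERG promoter peak had a ratio of 33.8, TEK 15.4, ETS1 10.8, EGFL7 9.80 and FLI1 8.82. ERG and TEK, both among the 11, are also genes whose RNA defined the endothelial nuclei. PTPRM, MECOM and TJP1 had promoter ratios of 0.981, 1.28 and 1.11.

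The peaks were listed for 2315 genes of the files, 1524 of them with a symbol, and 491 peaks were listed for more than 1 gene. A single member was listed for 1745 genes, 2 for 394 and 3 or more for 176. EXD3, an exonuclease domain gene, and FGGY, a carbohydrate kinase gene, had the most, with 7 each among 51 and 41 distal peaks. ETS1, LMO2, PLXND1, MAML2 (a Notch coactivator) and RGL1 (an exchange factor for Ral) had 6. HS6ST1, a heparan sulfate sulfotransferase, and the unnamed models ENSGALG00000051647 and ENSGALG00000051828 had 5. FGGY RNA was lower in endothelial nuclei (27.5 against 62.1 CPM), and EXD3 (34.8 against 32.5) and HS6ST1 (130 against 131) were close to the rest. ENSGALG00000051828, with 3 of its 5 members 3-fold above each class and ratios up to 24.0, had no UMI in endothelial nuclei or in endothelial cells at E20.

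RNA of linked genes was more often higher in endothelial nuclei than RNA of all genes. Genes needed 20 CPM on either side, a filter that 1037 of the 2315 linked genes passed. At E13, 343 of the 1037 (33.1%) were 2-fold or more higher in endothelial nuclei, where 13% of all 5587 genes tested were, and 86 (8.29%) were 2-fold or more lower. Without the minimum the shares were 23.0% and 6.85%. The share was 25.98% for genes with 1 member, 44.5% with 2 and 56.1% with 3 or more. It was 41.4% for genes with a member 3-fold above each class and 26.1% for genes whose members were all shared. These nuclei are the ones the rule used, so the E13 shares are a description.

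The E20 libraries were not used by the rule. The same UMI rule found 641 endothelial cells in the E20 epithelial library, although that sort was for epithelium, and 386 in the CD45neg library. SFTPC UMIs were in all 641 of the first and in 32.1% of the second, and the part of epithelial RNA in the results was not tested. In the epithelial library 545 of 899 linked genes tested (60.6%) were 2-fold or more higher in endothelial cells, where 32.5% of all genes were. In the CD45neg library it was 616 of 932 (66.1%), where 45.9% of all genes were. Leaving mitochondrial, ribosomal protein and haemoglobin genes out of the totals brought these CD45neg shares to 40.4% and 17.5%. The median gene tested was itself higher in endothelial cells, by 0.63 and 0.93 on the log2 scale. Relative to that median, 383 linked genes (42.6%) against 15.2% of all genes, and 344 (36.9%) against 13.9%, were 2-fold or more higher. By the ratios not set relative to the median, 204 of 708 linked genes (28.8%) and 384 of 3897 genes (9.85%) were 2-fold or more higher in all 3 libraries.

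**Figure D5:**
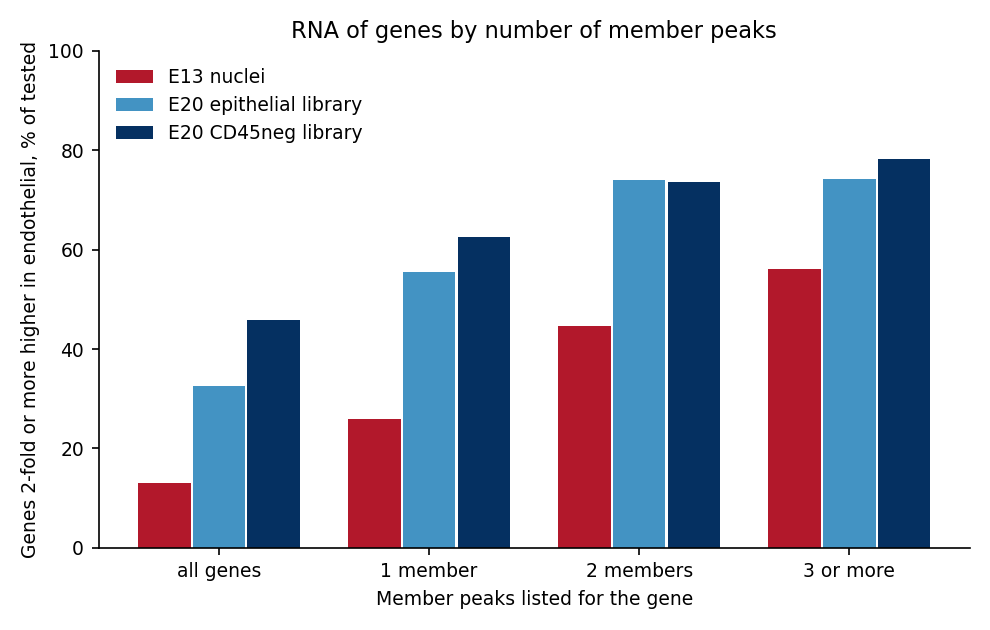
Bars give the percent of tested genes whose RNA was 2-fold or more higher in endothelial nuclei or cells, for all genes and for genes with 1, 2 or 3 and more member peaks, in 3 libraries. At E13 the bars go from 13% for all genes to 56.1% for 3 or more members. Both E20 libraries start higher, at 32.5% and 45.9%.

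List genes with members differed in their RNA at E20. The E20 folds given here are not set relative to the median gene tested. That gene was itself higher in endothelial cells, by 0.63 and 0.93 on the log2 scale in the epithelial and CD45neg libraries. The intervals do not cover this shift. Levels at E13 and E20 come from different sorts and assays, so age and library cannot be told apart in their difference. Mitochondrial UMIs count in the CPM totals. They were limited in E20 cells but not in E13 nuclei, where their median was 45.6% in endothelial nuclei. LMO2 RNA was 965 and 932 CPM in E20 endothelial cells of the epithelial and CD45neg libraries, 13.7-fold (12.9 to 14.6) and 6.75-fold (6.25 to 7.29) above the other cells. S1PR1 RNA was 34.5-fold (30.8 to 38.7) and 44.9-fold (37.6 to 53.9) above them, and CDH5 RNA 69.7-fold (64.5 to 75.4) and 110-fold (95.6 to 126). PLXND1 had 371 CPM in endothelial nuclei at E13, and 20.7 and 23.7 CPM in endothelial cells at E20, 6.06-fold (4.30 to 8.54) and 3.72-fold (2.38 to 5.75) above the other cells. NRP2 had 119 CPM at E13, and 6.31 and 4.62 CPM at E20, where its ratios to the other cells were 1.70 (1.00 to 2.79) and 0.825 (0.316 to 1.83). The E20 ratios of FOXO1 to the other cells were 1.89 (1.48 to 2.40) and 1.08 (0.733 to 1.54). Its RNA was 170 CPM at E13, and 27.1 and 23.7 CPM at E20. PDGFB had the opposite order, with 38.4 CPM at E13, and 641 and 687 CPM at E20, 40.6-fold (36.2 to 45.7) and 69.0-fold (55.6 to 86.7) above the other cells. MECOM, with 3 members, had less RNA in endothelial nuclei (214 CPM) than in the rest (610 CPM). At E20 its RNA was again lower in the epithelial library, at 0.361 (0.304 to 0.426) of the other cells, and higher in the CD45neg library, at 2.10-fold (1.62 to 2.69). That CD45neg value is 1.04 on the log2 scale, close to the 0.93 of the median gene tested there.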

How the data were processed

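E13 nuclei and their peaks, and 2 E20 RNA libraries, were analysed from the count matrices deposited by the authors: UMI counts per gene and, at E13, ATAC counts per peak. The submitters' processing notes name Cell Ranger, Seurat and Signac and the build galGal6; per the file headers, versions were cellranger-arc 2.0.0 and cellranger 4.0.0. The authors' deposited peak annotation gives each peak's type and distance to genes, and 92.1% of its nonzero distances equal the gap to the listed gene start within 2 bp. How peaks were called is not given in the sources used here.

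Nuclei and E20 cells needed 500 genes. E20 cells also needed at most 20% mitochondrial UMIs. The totals were 53372394, 31800493 and 13997201 UMIs. The E20 libraries share 106 barcodes. Doublets were not called. Counts were summed per class (python 3.11.15, scipy 1.17.1) and scaled to 1000000 (CPM), with 1 added for ratios. The summing and ratio steps were tested on simulated data. With 1 library per group no test was run. Intervals of RNA ratios cover counting error only and are exact conditional Poisson intervals. Peak levels are given without intervals, since the peaks were chosen by their counts. Genes named were the 12 members of highest ratio (at most 1 per linked gene) and members of list genes. The 10 genes with the most members and peaks next to the thresholds were also named. Peaks of KDR, TAL1, KLF2, DLL4 and TIE1 that are not members, and MAEL RNA, were added after their values were seen. The members, lists and tests were chosen with earlier results of these data known. No genome sequence was used, so planned motif counts were not made.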

Additional observations from a re-analysis of the deposited data

How the results depend on the processing

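No paired analysis was possible because each group has 1 library. The number of member peaks, 2651, stayed within 1.5 times under 9 alternatives, from 1904 peaks with a ratio of at least 4 to 2931 without a pseudocount, the 3 chosen after seeing the data included. It moved to 1331 with 0 EPCAM and CDH1 UMIs in endothelial nuclei, to 1313 without the top 10% of nuclei by UMIs, to 1243 with a minimum of 40 counts, to 897 with counts set to 0 or 1, and to 228 with at most 40% mitochondrial UMIs, which left 45 endothelial nuclei. Of those sets, 1196, 1226, 1243, 892 and 190 peaks were among the 2651. The cause was not tested. Among the 9 alternatives of similar number, the peaks themselves were not always the same. With at most 3 mesenchymal UMIs in endothelial nuclei, 1843 of the 2651 (69.5%) were among the 2044 peaks. With the rest taken as the mean of 3 classes, 1780 (67.1%) were among the 1952 peaks. The ratio of at least 4 kept 71.8%, and the remaining alternatives kept 88.0% to 100%. The share of members 2-fold higher in nuclei with 2 or 3 UMIs, 56.6%, went to 47.7% with 3 UMIs for endothelial nuclei (80 nuclei then had 2), 35.1% with the mitochondrial limit, 54.5% without the top 10%, 63.2% with 0 or 1 counts, 50.6% with median-of-ratios scaling, 61.2% without a pseudocount and 64.2% in the 20 nuclei with other endothelial markers. The share over all distal peaks was between 14.7% and 20.3% in each of these. Numbers of linked genes 2-fold higher stayed within 1.5 times under the alternatives, except in the CD45neg library relative to the median of all genes, where 616 became 344. Without mitochondrial, ribosomal protein and haemoglobin genes that number was 418, and the shares fell from 66.1% of linked and 45.9% of all genes to 40.4% and 17.5%. Without barcodes found in both E20 libraries the numbers were 543 and 529, with 32.5% and 31.3% of all genes 2-fold higher. The share of members holding a motif was not run, with neither of its alternatives. With 137 endothelial nuclei, a peak at the limit of 20 counts was seen in few nuclei, so a level near it is imprecise, and 200 immune nuclei limit what can be said of sharing with immune cells.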

Other observations

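Some nuclei of the rest side carried member peaks at an endothelial level. Of 6695 such nuclei, 12 (0.179%) had a share of counts in member peaks at or above 5.85%, the lower quartile of the endothelial nuclei. In 15 nuclei with 0 UMIs of the 5 genes, but with 4 or more UMIs of the 12 other endothelial markers, PTPRC at 0 and at most 2 UMIs of EPCAM and CDH1, the median share was 3.29%, with quartiles of 2.77 and 7.99%. Their mesenchymal markers summed to 12463 RNA CPM, and their endothelial markers outside the rule to 2211 CPM, against 4799 CPM in the endothelial nuclei.

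Among endothelial nuclei, the share of counts in member peaks was lower where few UMIs defined the nucleus. The median was 5.31% in the 41 nuclei with 4 or 5 UMIs of the 5 genes, 8.61% in the 45 with 6 to 9, and 8.93% in the 51 with 10 or more. Their median peak counts were 5093, 5841 and 13502. In the 32 endothelial nuclei with 4 or more UMIs of the 6 mesenchymal genes the median share was 3.55%, and in the 105 others 8.99%. These shares describe nuclei that the rule used, and were split after their values were seen.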
